A study of Mus musculus with 28 samples.

Results

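Wild-type mouse macrophages were compared with and without fenofibrate, in 4 libraries labelled WT_fenofibrate and 4 labelled WT_control, 8 of the 28 messenger RNA libraries of the series. The comparison was chosen by the labelled genotype and treatment, and 15429 of the 56941 genes in the count table were tested in it, those with enough counts for a test. The cells were bone marrow-derived macrophages, grown from the marrow of C57BL/6 mice of 2 to 4 months, male and female, for 6 days in a medium that holds growth factors secreted by L929 cells, and kept for 24 h without that medium before an experiment. WT_fenofibrate cells received 50 µM fenofibrate. Neither the length of exposure nor what control cells received is given in the sources used here, so a vehicle effect cannot be told apart from that of the drug. The same experiment holds cells of Irgm1-/- mice, backcrossed to C57BL/6, under the same conditions (Irgm1KO_control and Irgm1KO_fenofibrate, 4 libraries each), which carry a deletion in the gene of the interferon-inducible GTPase Irgm1 and are used below only where the response of WT cells is set against theirs. The labels do not say how many animals a group came from. The p-values below reflect the variation among the libraries.

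Fenofibrate is a fibrate drug used to lower blood triglycerides. Its acid form binds PPAR alpha, a nuclear receptor that pairs with an RXR receptor and switches on genes of fatty acid uptake, of oxidation in mitochondria and peroxisomes, and of ketone synthesis, best known in liver. Macrophages are better known for the relatives PPAR gamma and PPAR delta and for the sterol-sensing LXR receptors, and fibrates have long been studied for lowering inflammatory gene expression. A separate route of gene control is the integrated stress response: kinases that sense amino acid shortage, misfolded protein, mitochondrial stress or viral RNA phosphorylate the translation factor eIF2 alpha, translation of the transcription factor ATF4 rises, and ATF4 switches on genes of amino acid uptake, amino acid synthesis and transfer RNA charging.

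Library totals ran from 89.1 to 118.1 M (mega) counts in WT_control and from 84.6 to 116.2 M in WT_fenofibrate. A gene without a symbol in the tables used took 1.42% to 10.29% of the counts of a WT library. Levels are given as counts per M of the scaled library total (CPM), for libraries 1 to 4 of a group in the order of their numbers. The fourth WT_fenofibrate library stood apart from the others of its group more often than any other WT library: of 27 levels that lay far from the rest of their group, among 120 genes described here, 20 were in that library. The main counts are therefore also given without it, and no fold change described here moved by more than 1.5 times when it was left out. Xist, the RNA of the silenced X chromosome of females, was at 50.2 to 137 CPM in libraries 1 and 3 of either WT group and at 0 to 1.78 CPM in libraries 2 and 4. Y-linked genes summed to 136 to 165 CPM of the unscaled total in libraries 2 and 4 and to at most 1.44 CPM in libraries 1 and 3. Each WT group thus held 2 female and 2 male libraries, from more than 1 animal. In Irgm1KO only library 3 of either group had the male pattern, so the genotypes differ in their mix of sexes, and the part of this in the differences between them was not tested. Defining macrophage genes were present in every library, and the 12 macrophage markers summed to between 23950 and 33080 CPM in WT_control and between 15020 and 24090 CPM in WT_fenofibrate. The targeted gene of the mutant, Irgm1 (ENSMUSG00000046879), was at 1669, 1514, 1652 and 1577 CPM in WT_control and at 1673, 1469.8, 1625 and 1582 CPM in WT_fenofibrate (log2 fold change -0.01, SE 0.05, adjusted p = 0.87), so the groups overlapped. In the mutant it was at 991 to 1040.3 CPM in Irgm1KO_control and at 1017 to 1144 CPM in Irgm1KO_fenofibrate, below every WT library but far from 0. Counts per gene do not show which part of the gene they come from, so they do not check the deletion itself.

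Fenofibrate changed many genes by small amounts. By the quasi-likelihood test of edgeR, with an adjusted p of 0.05 as the limit for a call, 2794 genes were higher in WT_fenofibrate (18.1% of those tested) and 2613 were lower (16.9%). Of these, 282 were higher and 392 lower by more than 2-fold, and the median log2 fold change over all tested genes was 0.02. Without the fourth WT_fenofibrate library, 2229 genes were called higher and 2209 lower. Because 5407 of the 15429 tested genes passed the test, a list of genes is described below by how many of its tested members were called in each direction, to be read against 18.1% and 16.9%. The plot of called shares by list shows that amino acid response genes lay at the upper end, and NF-kB genes, mitochondrially encoded mRNAs, class II genes, interferon-stimulated genes and endoplasmic reticulum chaperones at the lower end.

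**Figure D1:**
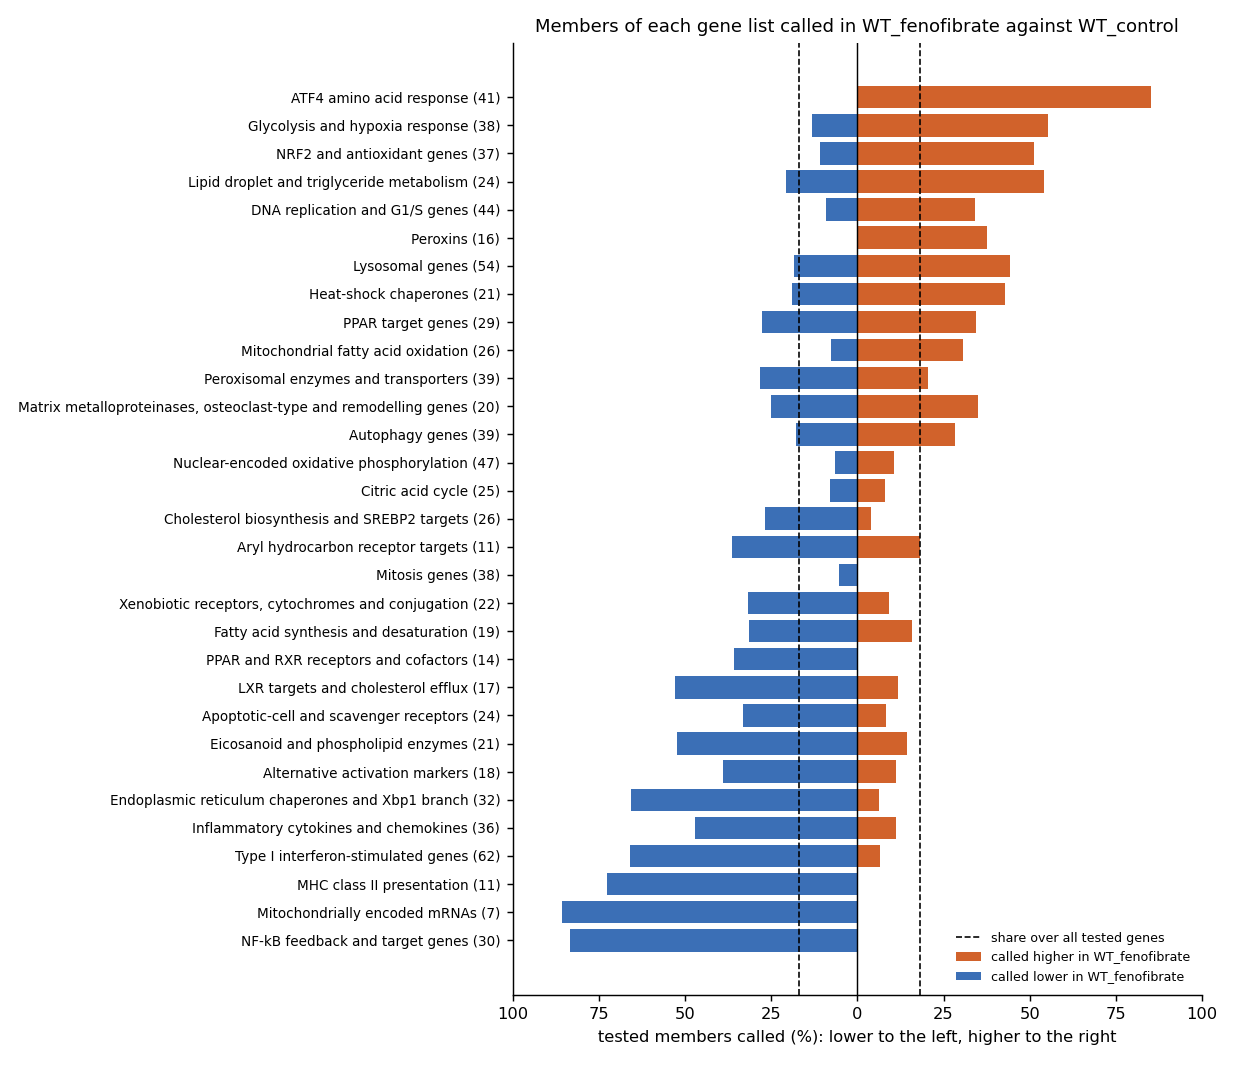
Share of the tested members of each gene list called higher (orange, to the right) or lower (blue, to the left) in WT_fenofibrate against WT_control, in percent, with the number of tested members in brackets and lists ordered by their median log2 fold change. Dashed lines mark the shares over all tested genes, 18.1% higher and 16.9% lower, and the longest bars are those of the ATF4 list (35 of 41 higher), mitochondrially encoded mRNAs (6 of 7 lower) and the NF-kB list (25 of 30 lower).

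Genes of the ATF4 amino acid response rose together. Of 41 tested members of that list, 35 were called higher and 0 lower, with a median log2 fold change of 0.90 against 0.02 over all tested genes. Without the fourth WT_fenofibrate library 34 were called higher. Atf4 itself, the factor that gives the list its name, was at 93.5, 73.7, 78 and 100.3 CPM in WT_control and at 201, 206, 195 and 297 CPM in WT_fenofibrate (log2 fold change 1.38, SE 0.13, adjusted p = 3.1e-06). Every treated library thus lay above every control library, the fourth highest. Ddit3, which encodes the stress-induced factor CHOP, was at 20.9, 14.2, 18.6 and 19 CPM in control and at 41.7, 39.5, 44.6 and 65.3 CPM in treated libraries (log2 fold change 1.39, SE 0.17, adjusted p = 2.4e-05). Atf5, a related factor translated under the same control, was at 24.5, 20.6, 21.2 and 32.6 CPM and, with fenofibrate, at 104, 109.9, 93 and 148 CPM (log2 fold change 2.20, SE 0.16, adjusted p = 3.2e-07). The groups did not overlap for either gene. Trib3 (ENSMUSG00000032715), a pseudokinase that ATF4 and CHOP induce, showed the largest rise in the list, from 5.07, 2.66, 3.25 and 5.03 CPM to 34.9, 36.5, 38.6 and 84.3 CPM (log2 fold change 3.60, SE 0.30, adjusted p = 1.6e-06). In the fourth treated library Trib3 was over 2-fold above the others of its group, which were themselves far above control.

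Several enzymes of amino acid synthesis on this list rose as well. Asns, asparagine synthetase, was at 19.9, 12.1, 13.8 and 22.4 CPM in WT_control and at 71.7, 63.2, 66.9 and 107 CPM in WT_fenofibrate (log2 fold change 2.18, SE 0.19, adjusted p = 2.1e-06). Phgdh, which opens the route to serine, was at 3.64, 1.67, 1.65 and 4.02 CPM and at 15.4, 11.4, 9.64 and 20.4 CPM (log2 fold change 2.36, SE 0.28, adjusted p = 2.5e-05). Mthfd2, a mitochondrial enzyme of folate metabolism, was at 48.7, 44.3, 43.7 and 56.2 CPM and at 109.6, 114, 105 and 134 CPM (log2 fold change 1.26, SE 0.09, adjusted p = 3.2e-07). In all 3 the lowest treated library lay above the highest control library. Pck2, the mitochondrial form of phosphoenolpyruvate carboxykinase, was at 34.7, 37.7, 36.2 and 38.7 CPM in control and at 69.6, 67.2, 63.4 and 75 CPM in treated libraries (log2 fold change 0.90, SE 0.06, adjusted p = 3.2e-07), with little spread in either group. Sars, the transfer RNA synthetase for serine, was at 121, 109, 111 and 125 CPM and at 229.7, 222, 222 and 281 CPM (log2 fold change 1.03, SE 0.08, adjusted p = 3.2e-07), and Aars, that for alanine, rose by a log2 fold change of 1.06. Not every member of the list was called: Psat1, Cth, Slc1a5, Cebpb, Ddit4 and Vldlr were the 6 tested members that did not pass the test.

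Some amino acid transporters were several-fold higher with the drug. Slc7a5, the light chain of the large neutral amino acid exchanger, was at 1.92, 1.76, 1.86 and 2.5 CPM in WT_control and at 8.9, 10.7, 9.24 and 15 CPM in WT_fenofibrate (log2 fold change 2.44, SE 0.16, adjusted p = 3.2e-07). Slc7a11, the cystine carrier, was at 4.28, 6.0, 2.65 and 6.58 CPM and at 10.1, 23.9, 9.51 and 26 CPM (log2 fold change 1.83, SE 0.40, adjusted p = 0.0026). For Slc7a11 the libraries numbered 2 and 4 were higher than those numbered 1 and 3 in either group, which is also the split by sex, and the groups did not overlap. Outside the list, the neutral amino acid carriers Slc1a4 and Slc6a19 were among the 12 largest rises of genes at 5 CPM or more whose groups did not overlap. Slc1a4 was at 1.21, 1.18, 1.11 and 1.31 CPM in control and at 5.03, 4.87, 5.03 and 8.44 CPM in treated libraries (log2 fold change 2.28, SE 0.16, adjusted p = 3.2e-07). Slc6a19 was at 3.54, 4.06, 5.04 and 4.88 CPM and at 11.4, 17, 17.6 and 20.4 CPM (log2 fold change 1.92, SE 0.18, adjusted p = 2.3e-06). Chac1, an enzyme that breaks down glutathione, stayed low in absolute terms, at 0.397, 0.292, 0.198 and 0.354 CPM in control and 1.8, 1.88, 1.9 and 3.57 CPM in treated libraries (log2 fold change 2.87, SE 0.24, adjusted p = 7.2e-07).

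ATF4 binds, with a partner of the C/EBP family, to a short element whose core can be written TGATGNAA. Both strands of RefSeq promoter windows (GRCm38.p6; 250 bases before to 50 after a gene's start) were searched for it, 13051 windows of 10249 tested genes, and 293 genes (2.86%) held a match. Of the 33 genes of the ATF4 list with a window, 13 held one (39.4%). Among all genes called higher it was 75 of 2153 (3.48%), and among all called lower 61 of 1950 (3.13%). Among genes called higher by more than 2-fold, which include ATF4 list members such as Asns, it was 16 of 187 (8.56%). Among those called lower by more than 2-fold it was 8 of 252 (3.17%). The stricter form TTGCATCA, which is TGATGCAA read on the other strand and so overlaps the first, stood in 78 of all genes (0.761%) and in 9 of the 33 (27.3%). The list was assembled from known ATF4 targets, and the NF-kB list described below also held TGATGNAA in 4 of 23 genes (17.4%), so a match is a description of these windows and no more. The stretches below are shown because they place the element upstream of 6 genes that rose, on the strand of the gene and 5′ to 3′, with the match in capitals. Slc7a11 holds a pair of matches in opposite orientation.
Asns: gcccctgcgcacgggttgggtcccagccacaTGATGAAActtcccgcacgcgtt
Chac1: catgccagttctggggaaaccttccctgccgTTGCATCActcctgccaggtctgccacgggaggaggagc
Slc7a11: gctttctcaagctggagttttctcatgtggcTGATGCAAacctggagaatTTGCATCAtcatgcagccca
Nupr1: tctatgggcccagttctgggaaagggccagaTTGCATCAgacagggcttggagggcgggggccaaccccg
Pck2: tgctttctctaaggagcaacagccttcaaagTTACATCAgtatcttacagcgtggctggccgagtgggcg
Jdp2: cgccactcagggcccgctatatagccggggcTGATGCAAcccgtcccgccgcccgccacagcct
In GRCm38.p6 these lie at chr6:7693210-7693263 on the minus strand (Asns), chr2:119351018-119351087 on the plus strand (Chac1), chr3:50443641-50443710 on the minus strand (Slc7a11), chr7:126625542-126625611 on the minus strand (Nupr1), chr14:55540132-55540201 on the plus strand (Pck2) and chr12:85599352-85599415 on the plus strand (Jdp2). Between the first match and the start of the gene lie 15 bases in Asns, 185 in Chac1, 58 in Slc7a11, 102 in Nupr1, 95 in Pck2 and 25 in Jdp2. Nupr1, a small stress-induced chromatin protein, was at 20.1, 16, 18.9 and 18.2 CPM in WT_control and at 32.1, 24.5, 29.3 and 31.2 CPM in WT_fenofibrate (log2 fold change 0.68, SE 0.12, adjusted p = 0.00054). Jdp2, a repressor of the AP-1 family, was at 19, 19.1, 16.9 and 21.6 CPM and at 35, 35.6, 35.3 and 38.7 CPM (log2 fold change 0.92, SE 0.08, adjusted p = 1.6e-06). These 6 genes were chosen for display after their values and matches were seen.

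**Figure D2:**
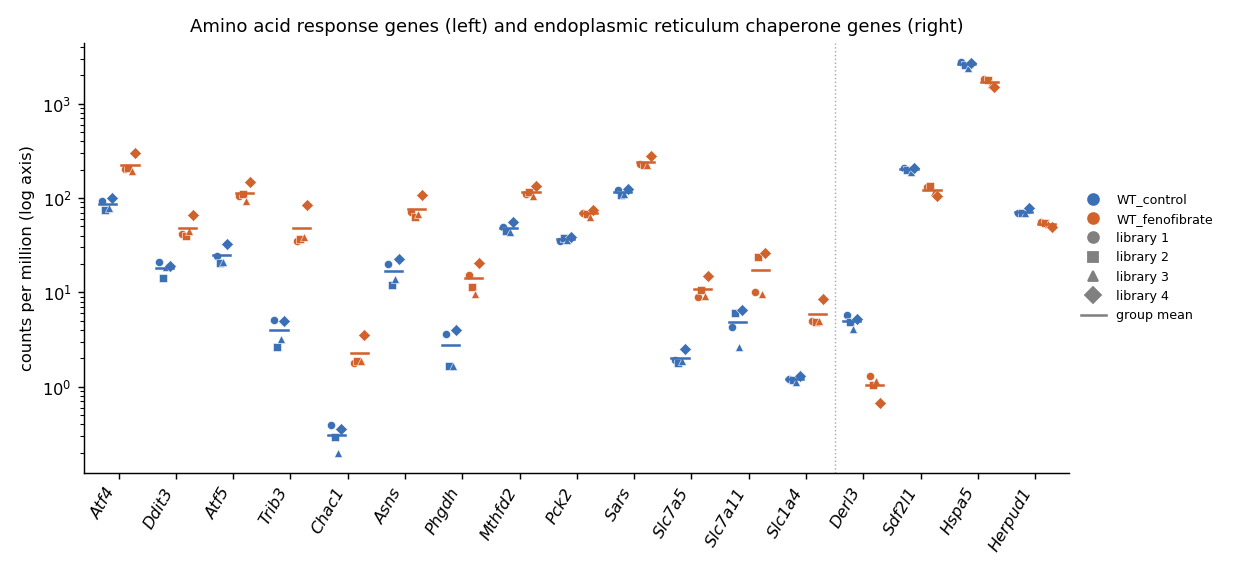
Level of amino acid response genes and of endoplasmic reticulum chaperone genes in each of the 8 WT libraries, in counts per M (CPM) on a log axis, with WT_control in blue, WT_fenofibrate in orange, a symbol for each library number and a line at the group mean. The 4 treated libraries lie above the 4 control libraries for every gene left of the dotted line, with the fourth library at 84.3 CPM for Trib3, and below them for Derl3, Sdf2l1, Hspa5 and Herpud1.

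The unfolded protein response of the endoplasmic reticulum, which shares the eIF2 alpha branch with ATF4 but also raises chaperones through Xbp1 and ATF6, moved the other way in its chaperone arm. Of 32 tested chaperone and Xbp1-branch genes, 21 were called lower and 2 higher (Ern1, the sensor that splices Xbp1, and Ero1l, an oxidase), with a median log2 fold change of -0.35. Derl3, a membrane protein of protein export for degradation, was at 5.69, 4.91, 4.12 and 5.18 CPM in WT_control and at 1.29, 1.03, 1.14 and 0.671 CPM in WT_fenofibrate (log2 fold change -2.27, SE 0.17, adjusted p = 3.2e-07). Hspa5, the main chaperone of the compartment, was at 2742, 2552, 2401 and 2722 CPM and at 1817, 1786, 1630.4 and 1492 CPM (log2 fold change -0.63, SE 0.07, adjusted p = 6.2e-06). Every treated library lay below every control library for these genes. Sdf2l1, a cofactor of Hspa5, fell by 0.73 on the log2 scale, and Pdia4, a disulfide isomerase, by 0.63. Herpud1, a degradation factor, was at 69.6, 69.4, 68.7 and 78.2 CPM in control and at 56.2, 54.5, 52.9 and 49.6 CPM in treated libraries (log2 fold change -0.42, SE 0.05, adjusted p = 7.8e-06). Without the fourth WT_fenofibrate library 20 of the list were called lower.

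Hspa9, Hspd1 and Hspe1, chaperones of the mitochondrial matrix, rose. Hspa9, the mitochondrial member of the Hsp70 family, was at 224, 206, 217 and 224 CPM in WT_control and at 386, 401, 398 and 587 CPM in WT_fenofibrate (log2 fold change 1.03, SE 0.10, adjusted p = 3.1e-06). Hspd1 and Hspe1, the chaperonin pair Hsp60 and Hsp10, rose by log2 fold changes of 0.41 (adjusted p = 0.00024) and 0.46 (adjusted p = 5.7e-06). No control library reached the level of a treated library for any of the 3. In the cytosol Hspa4l, an Hsp110-type cofactor, rose (log2 fold change 0.62, SE 0.07, adjusted p = 5.5e-06), while Hspa8, the constitutive Hsp70, fell (log2 fold change -0.44, SE 0.06, adjusted p = 3.5e-05). Over the heat-shock list, 9 of 21 tested members were called higher and 4 lower. Leaving out the fourth WT_fenofibrate library gave 6 higher and 5 lower. The main count of 4 lower dropped to 2 when control library 3, fenofibrate library 1 or fenofibrate library 2 was left out.

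Messenger RNAs made from mitochondrial DNA were lower. The share of all counts that came from mitochondrially encoded genes was 1.526% to 1.83% in the WT_control libraries and 1.106% to 1.39% in the WT_fenofibrate libraries, with no overlap. Of the 13 protein-coding mitochondrial genes, 7 passed the filter on low counts, and 6 of these were called lower and 0 higher (median log2 fold change -0.52). The count of lower genes was 5 without the fourth WT_fenofibrate library. The calls do not cover the genes that did not pass, and mt-Nd3 had 0 counts in all 8 WT libraries. Why these genes had so few counts was not tested. mt-Nd5, a subunit of complex I, was at 1983, 2329, 2118 and 1989 CPM in WT_control and at 1243, 1267, 1080.5 and 856 CPM in WT_fenofibrate (log2 fold change -0.92, SE 0.11, adjusted p = 1.5e-05). mt-Cytb, of complex III, was at 1857, 1819, 2061 and 2151 CPM and at 1242, 997, 1026 and 934 CPM (log2 fold change -0.91, SE 0.12, adjusted p = 2.9e-05). mt-Co1, of complex IV, was at 9630.4, 10352, 10863 and 10544 CPM and at 7908, 7163, 7671 and 6195 CPM (log2 fold change -0.52, SE 0.08, adjusted p = 0.00021). Treated libraries lay below control libraries throughout, the fourth lowest in all 3. mt-Nd4 and mt-Nd2 fell by 0.70 and 0.31 on the log2 scale. Reads of these genes can be shared with nuclear copies of mitochondrial DNA, and how the authors counted such reads is not given in the sources used here.

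Nuclear genes of the same respiratory complexes did not follow. Of 47 tested, 5 were called higher and 3 lower, with a median log2 fold change of 0.01. The 5 were Uqcrq, Ndufa5, Ndufv1, Cyc1 and Ndufa10, and the 3 were Ndufa4, Ndufs8 and Ndufb8. The higher count moved to 3 when control library 2, control library 4 or fenofibrate library 1 was left out, and to 8 in a fit that pairs same-numbered libraries. Of 25 citric acid cycle genes, Idh2 and Pdhb were called higher and Ogdh and Dlst lower, and the count of higher genes was 1 without any of control libraries 1, 2, 3 and 4 or fenofibrate libraries 1 and 3. A respiratory gene outside the list had the largest rise chosen in that way: Cox6a2 (ENSMUSG00000030785), the form of a complex IV subunit known from heart and skeletal muscle, was at 0.188, 0.175, 0.253 and 0.312 CPM in WT_control and at 6.27, 8.94, 7.09 and 17.9 CPM in WT_fenofibrate (log2 fold change 5.41, SE 0.35, adjusted p = 3.2e-07). It was all but silent in the control libraries.

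The receptors of the drug class were measured next. Ppara, the receptor that fenofibrate is named for activating, had at most 1 count in any of the 8 WT libraries and could not be tested. Pparg, the form that directs fat storage and is used by tissue macrophages, was at 22.3, 15.7, 20.6 and 17.9 CPM in WT_control and at 24.5, 17, 19.3 and 19.8 CPM in WT_fenofibrate (log2 fold change 0.08, SE 0.12, adjusted p = 0.66). Ppard, the form found in most tissues, was at 31.4, 33, 29.4 and 31.9 CPM and at 28.2, 28.9, 25.6 and 29.9 CPM (log2 fold change -0.16, SE 0.07, adjusted p = 0.074). The fit that pairs same-numbered libraries called Ppard lower (adjusted p = 0.026). Rxra, the shared partner, was at 47.4, 78.9, 62.5 and 72.7 CPM in control and at 51.2, 92.4, 70.1 and 77.8 CPM in treated libraries (log2 fold change 0.16, SE 0.19, adjusted p = 0.56). Library 1 was lowest and library 2 highest in either group for Rxra, and the paired fit called it higher (adjusted p = 0.0078). Over 14 tested receptors and cofactors, 0 were called higher and 5 lower, among them Ppargc1b, Ep300, Ncoa3 and Ncoa1, or 1 higher and 8 lower in the paired fit.

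Known PPAR target genes split. Of 29 tested, 10 were called higher and 8 lower, with a median log2 fold change of 0.09. Pdk4, a classic PPAR alpha target in liver, was not among the tested genes and had at most 2 counts in a WT library. Fabp1, Cyp4a10 and Cyp4a14, hepatic targets as well, had 0 counts in all 8. Fabp4, a fatty acid carrier of fat cells and macrophages, was at 12.2, 15.2, 10.5 and 15.2 CPM in WT_control and at 20.2, 36, 22.5 and 30.5 CPM in WT_fenofibrate (log2 fold change 1.04, SE 0.18, adjusted p = 0.00052). Fabp5, its neighbour in the family, was at 219, 265, 239.7 and 255 CPM and at 399, 649, 454 and 524 CPM (log2 fold change 1.05, SE 0.12, adjusted p = 1.5e-05). Acot2, a mitochondrial acyl-CoA thioesterase, was at 4.21, 4.25, 4.51 and 4.6 CPM and at 8.28, 8.21, 8.33 and 12.4 CPM (log2 fold change 1.08, SE 0.12, adjusted p = 1e-05). The treated libraries were higher in each case with no overlap. Plin2, the coat protein of lipid droplets, was at 449, 412, 395 and 435 CPM in control and at 536, 483, 498 and 571 CPM in treated libraries (log2 fold change 0.30, SE 0.08, adjusted p = 0.01), a smaller rise.

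Other targets on the same list fell. Cpt1a, the gate for fatty acid entry into mitochondria, was at 300.0, 288, 279 and 287 CPM in WT_control and at 249, 215, 245 and 223 CPM in WT_fenofibrate (log2 fold change -0.31, SE 0.05, adjusted p = 0.00042). Angptl4, a secreted lipase inhibitor, was at 1.0, 1.33, 0.627 and 0.809 CPM and at 0.573, 0.53, 0.434 and 0.469 CPM (log2 fold change -0.90, SE 0.22, adjusted p = 0.0039). Ucp2, a carrier of the inner mitochondrial membrane, was at 926, 936, 863 and 813 CPM and at 605, 494, 550.1 and 392 CPM (log2 fold change -0.79, SE 0.11, adjusted p = 3.9e-05). All treated libraries were below all control libraries for these genes. Txnip, an inhibitor of glucose uptake, fell from 401 to 479 CPM to 210.3 to 257 CPM (log2 fold change -0.92, SE 0.07, adjusted p = 3.2e-07). Lpl, which frees fatty acids from lipoproteins, was at 861 to 1208 CPM in control and 605 to 859.8 CPM in treated libraries (log2 fold change -0.44, SE 0.13, adjusted p = 0.017), and that call was lost without control library 3 or fenofibrate library 2 or 4 (adjusted p up to 0.0617). Cd36, the scavenger receptor and fatty acid carrier, was at 303, 142, 366 and 330.4 CPM and at 356, 210.3, 387 and 372 CPM (log2 fold change 0.22, SE 0.26, adjusted p = 0.56). Library 2 was lowest in either group for Cd36, the groups overlapped, and the paired fit called it higher (adjusted p = 0.042).

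**Figure D3:**
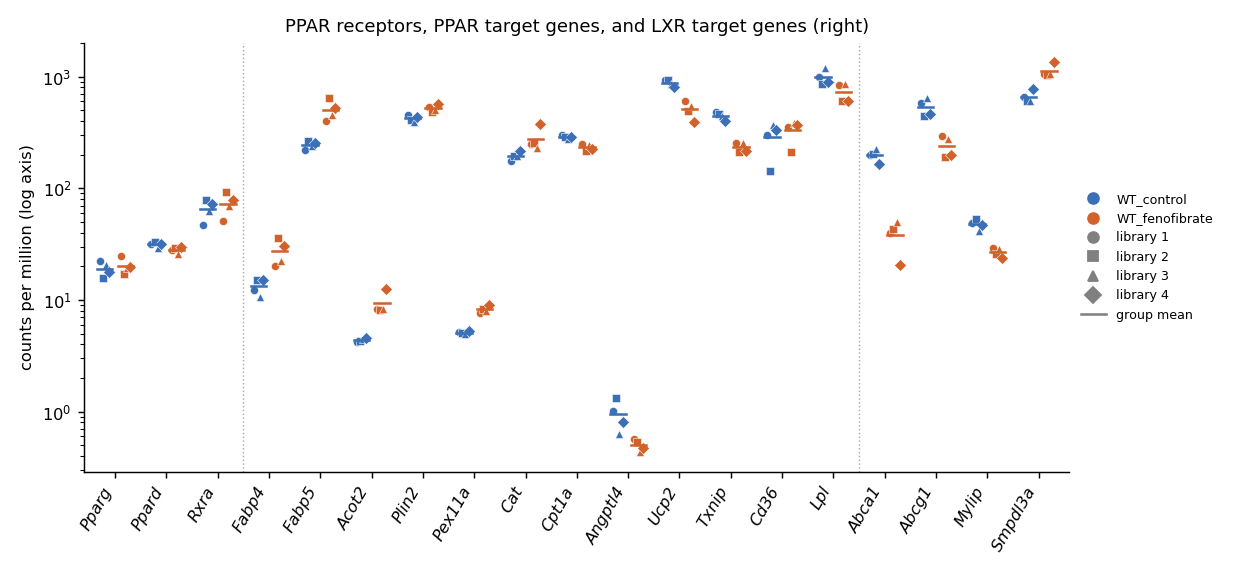
Level of PPAR receptor genes (left), PPAR target genes (middle) and LXR target genes (right) in each of the 8 WT libraries, in counts per M (CPM) on a log axis, with WT_control in blue, WT_fenofibrate in orange, a symbol for each library number and a line at the group mean. Fabp4, Fabp5, Acot2, Plin2 and Pex11a lie higher in the treated libraries, Cpt1a, Angptl4, Ucp2, Txnip, Abca1, Abcg1 and Mylip lie lower, and Pparg, Ppard, Rxra and Cd36 overlap.

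Fatty acid oxidation in mitochondria moved little. Of 26 tested genes, 8 were called higher and 2 lower, and the 10 called changes lay between -0.31 and 0.43 on the log2 scale. Echs1, which hydrates the shortened acyl chain, was at 41.2, 42.1, 39.5 and 43.4 CPM in WT_control and at 52.7, 60.3, 53.9 and 56.8 CPM in WT_fenofibrate (log2 fold change 0.43, SE 0.05, adjusted p = 2.3e-05). Acadl, a dehydrogenase for long chains, rose by a log2 fold change of 0.22 (adjusted p = 0.0034), and its relative Acadvl was at 61.4 to 67.3 CPM in control and 56.5 to 66.6 CPM in treated libraries (log2 fold change -0.05, SE 0.05, adjusted p = 0.56).

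Peroxisomes, the organelles that multiply under fibrates in rodent liver, showed changes in both directions. Of 16 tested peroxins, which build the organelle, 6 were called higher and 0 lower (median log2 fold change 0.17), and 4 were called higher without the fourth WT_fenofibrate library. Pex11a, which drives peroxisome division and is a PPAR alpha target in liver, was at 5.12, 5.01, 5.01 and 5.24 CPM in WT_control and at 7.58, 8.36, 7.96 and 9.0 CPM in WT_fenofibrate (log2 fold change 0.69, SE 0.10, adjusted p = 4.8e-05). The groups were well apart, and the control libraries lay close together. Of 39 tested peroxisomal enzymes and transporters, 8 were called higher and 11 lower, and the log2 fold changes ran from -1.06 to 0.97. The share called higher was near the 18.1% over all tested genes, and the share called lower was above 16.9%. Nudt12, a peroxisomal enzyme that cleaves NADH, was at 3.04, 2.62, 2.81 and 3.53 CPM and at 5.8, 5.2, 5.57 and 5.63 CPM (log2 fold change 0.89, SE 0.15, adjusted p = 0.00028), with no overlap. Cat, catalase, was at 177, 195, 197 and 218 CPM and at 249, 255, 228 and 380.4 CPM (log2 fold change 0.50, SE 0.13, adjusted p = 0.0057), with the fourth treated library well above the others. Ehhadh, a bifunctional enzyme of peroxisomal oxidation, was at 2.72 to 3.44 CPM and 2.94 to 4.88 CPM and did not pass the test (log2 fold change 0.26, SE 0.17, adjusted p = 0.26). Pxmp2, a membrane channel, was called lower, with a log2 fold change of -1.06 (adjusted p = 0.00087).

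Direct repeats of AGGTCA with 1 base between are the textbook site of PPAR and RXR, and repeats with 4 bases between that of LXR and RXR. In their exact letters on either strand, the first stood in 6 of the 13051 promoter windows, in 0 of the 187 genes called higher by more than 2-fold, and the second in 0. Functional sites vary in sequence and often lie outside such windows.

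LXR target genes fell. Of 17 tested, 9 were called lower and 2 higher, with a median log2 fold change of -0.18. Without the fourth WT_fenofibrate library 6 were called lower. Abca1, which exports cholesterol to apolipoprotein A-I, was at 199.7, 201, 227 and 165 CPM in WT_control and at 39.8, 43.2, 49.8 and 20.6 CPM in WT_fenofibrate (log2 fold change -2.37, SE 0.20, adjusted p = 1.6e-06). Abcg1, which exports it to mature HDL, was at 580.2, 440.0, 645 and 459.6 CPM and at 294, 190.3, 277 and 198 CPM (log2 fold change -1.15, SE 0.15, adjusted p = 3.6e-05). Mylip, a ubiquitin ligase that LXR induces, was at 49.2, 52.8, 41.5 and 46.7 CPM and at 29.4, 25.7, 28.7 and 23.5 CPM (log2 fold change -0.83, SE 0.09, adjusted p = 8.9e-06). No treated library reached the lowest control library for these 3 genes. Srebf1, which LXR induces and which drives fatty acid synthesis, fell by 0.28 on the log2 scale. Smpdl3a, a secreted phosphodiesterase that LXR induces, went the other way, at 652, 607, 604 and 769 CPM in control and 1048, 1034, 1054 and 1349 CPM in treated libraries (log2 fold change 0.77, SE 0.11, adjusted p = 8.4e-05). The other gene called higher was Npc1, the lysosomal cholesterol exporter.

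Sterol and fatty acid synthesis genes were called lower more often than higher, and most did not pass the test. Of 26 cholesterol synthesis and SREBP2 target genes, 1 was called higher (Sc5d) and 7 lower, and the median log2 fold change was -0.04. The single higher call was lost without control library 3 or fenofibrate library 2, and 2 genes were called higher in the paired fit. Insig1, a brake on SREBP processing, was at 38.7, 43.6, 35.8 and 42.2 CPM in WT_control and at 31, 32.4, 28.8 and 25.1 CPM in WT_fenofibrate (log2 fold change -0.45, SE 0.08, adjusted p = 0.00047). Of 19 fatty acid synthesis genes, 3 were called higher and 6 lower, among them Fasn, the synthase itself (log2 fold change -0.52, SE 0.08, adjusted p = 0.00018). Storage genes rose more often: of 24 tested lipid droplet and triglyceride genes, 13 were called higher and 5 lower (3 without control library 3 or fenofibrate library 2), with a median log2 fold change of 0.24. Leaving out the fourth WT_fenofibrate library gave 10 higher and 4 lower. Mgll, which splits monoglycerides, was at 0.484 to 0.731 CPM in control and 1.26 to 2.09 CPM in treated libraries (log2 fold change 1.43, SE 0.33, adjusted p = 0.0033).

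Antioxidant genes rose while the gene of their main regulator fell. Nfe2l2, which encodes NRF2, was at 422, 466, 411 and 452 CPM in WT_control and at 312, 312, 312 and 271 CPM in WT_fenofibrate (log2 fold change -0.54, SE 0.06, adjusted p = 1.5e-05), with no overlap. NRF2 is controlled mainly at the protein level, which was not measured. Of 37 tested antioxidant genes that NRF2 is known to control, 19 were called higher and 4 lower (median log2 fold change 0.29). The 4 were Nfe2l2, Gstp1, Cbr3 and G6pdx, and this count was 2 without control library 1, control library 3 or fenofibrate library 2 and 8 in the paired fit. Gstm1, a glutathione transferase, was at 26.8, 21.9, 23.6 and 34.4 CPM in control and at 68.8, 53.1, 54.8 and 91.4 CPM in treated libraries (log2 fold change 1.33, SE 0.18, adjusted p = 7.7e-05). Nqo1, a quinone reductase, was at 1.35, 1.16, 1.12 and 1.58 CPM and at 2.61, 2.14, 2.67 and 4.81 CPM (log2 fold change 1.23, SE 0.20, adjusted p = 0.00019). Ftl1, a ferritin chain, rose by a log2 fold change of 0.53 (adjusted p = 0.00017). The treated libraries were above the control libraries for all 3. The largest rise on the list was in another glutathione transferase, Gsta3, at 0.0522, 0.0935, 0.044 and 0.0422 CPM and at 0.563, 0.704, 0.32 and 1.47 CPM (log2 fold change 3.74, SE 0.52, adjusted p = 5.7e-05), so at low levels throughout. Hmox1, heme oxygenase, was at 159, 181, 152 and 193 CPM and at 158, 193, 163 and 239 CPM, overlapped and did not pass the test (log2 fold change 0.14, SE 0.11, adjusted p = 0.35). Slc6a9, a glycine carrier on this list, rose from 1.23 to 1.6 CPM to 3.62 to 7.36 CPM (log2 fold change 1.72, SE 0.19, adjusted p = 7.8e-06), and Mt2, a metal-binding metallothionein, from 5.37 to 8.41 CPM to 19.5 to 38.8 CPM (log2 fold change 1.95, SE 0.21, adjusted p = 9.2e-06). The ATF4 and antioxidant lists share Slc7a11.

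Genes that NF-kB controls fell together. Of 30 tested feedback and target genes, 25 were called lower and 0 higher, with a median log2 fold change of -0.71, and 22 were called lower without the fourth WT_fenofibrate library. Nfkb1, the p50 subunit gene, was at 198, 215, 204 and 202 CPM in WT_control and at 142, 145, 143 and 129 CPM in WT_fenofibrate (log2 fold change -0.55, SE 0.05, adjusted p = 1.6e-06). Birc3, an inhibitor of cell death that NF-kB induces, was at 109, 113, 109.6 and 104 CPM and at 54.7, 45.5, 60.3 and 42 CPM (log2 fold change -1.11, SE 0.09, adjusted p = 4.2e-07). Nlrp3, the inflammasome sensor, was at 121, 131, 122 and 131 CPM and at 66.8, 56.6, 68.3 and 48.3 CPM (log2 fold change -1.07, SE 0.10, adjusted p = 2.6e-06). The ranges of treated and control libraries did not overlap in any of them. Ptgs2, the inducible cyclooxygenase, was at 68.2, 79.6, 63.7 and 69.9 CPM in control and at 24.8, 22, 23.2 and 16.7 CPM in treated libraries (log2 fold change -1.70, SE 0.14, adjusted p = 1.2e-06). Zfp36, which destabilises cytokine mRNAs, fell by 0.75 on the log2 scale, and Vcam1, an adhesion molecule at a few CPM, by 1.78.

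The element that NF-kB dimers bind was searched as GGGNTTTCC on both strands of the same windows, a form chosen after a first search with a longer form. It stood in 225 of all 10249 genes (2.20%) and in 6 of the 23 NF-kB list genes with a window (26.1%). Among genes called lower by more than 2-fold it stood in 9 of 252 (3.57%). Among those called higher by more than 2-fold the share was 3.74%. Among all genes called lower it was 62 of 1950 (3.18%), and among all called higher 48 of 2153 (2.23%). Sites that vary from this form were not counted, so these shares do not show how often NF-kB sites occur in a set. The 3 stretches below show a match upstream of list members that fell, in capitals, 5′ to 3′ on the strand of the gene.
Nfkb2: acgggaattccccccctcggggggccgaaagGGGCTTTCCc
Bcl3: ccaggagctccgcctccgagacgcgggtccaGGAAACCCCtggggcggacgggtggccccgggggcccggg
Nlrp3: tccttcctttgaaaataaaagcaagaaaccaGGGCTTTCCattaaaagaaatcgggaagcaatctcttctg
They lie in GRCm38.p6 at chr19:46304696-46304736 on the plus strand (Nfkb2), chr7:19822820-19822890 on the minus strand (Bcl3) and chr11:59542561-59542631 on the plus strand (Nlrp3), and the match ends 1 base, 95 bases and 85 bases before the start. The match in Bcl3 reads on the opposite strand. Nfkb2, the p100 and p52 subunit gene, was at 90.8, 96.7, 90.4 and 96 CPM in WT_control and at 59.5, 43.4, 59.4 and 45.8 CPM in WT_fenofibrate (log2 fold change -0.85, SE 0.11, adjusted p = 2.9e-05). Bcl3, a nuclear partner of these subunits, was at 29.1, 32, 29.3 and 29.9 CPM and at 16.2, 13, 17.3 and 13.7 CPM (log2 fold change -1.0, SE 0.11, adjusted p = 9.8e-06). Of 4 further motifs, the shares among all genes and among genes called higher by more than 2-fold were 17.1% and 19.3% for the antioxidant response element TGACNNNGC, 2.02% and 2.14% for the xenobiotic response element TTGCGTG, 2.19% and 1.07% for the CLEAR box TCACGTGA, and 0.693% and 1.07% for the sterol regulatory element TCACCCCAC.

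Cytokines followed with exceptions. Of 36 tested cytokine and chemokine genes, 17 were called lower and 4 higher. Il1b, interleukin-1 beta, was at 3.15, 3.55, 2.78 and 3.53 CPM in WT_control and at 0.358, 0.174, 0.343 and 0.0727 CPM in WT_fenofibrate (log2 fold change -3.82, SE 0.34, adjusted p = 1.6e-06). Tnf, tumour necrosis factor, was at 39.2, 44.1, 38.9 and 44.6 CPM and at 20.3, 20.0, 20.3 and 17.1 CPM (log2 fold change -1.10, SE 0.09, adjusted p = 3.5e-07). Cxcl10, a chemokine that interferons induce, was at 829, 944, 911 and 854 CPM and at 265, 182, 318 and 168 CPM (log2 fold change -1.92, SE 0.17, adjusted p = 1.6e-06). No treated library reached a control library, and the fourth was lowest for each of the 3. Ccl2, the monocyte chemokine, was at 11.8, 15, 13 and 14.9 CPM in control and at 7.77, 10.9, 7.69 and 12.3 CPM in treated libraries (log2 fold change -0.50, SE 0.16, adjusted p = 0.025), the ranges overlapped, and the call was lost without control library 2 or 4 or fenofibrate library 1 or 3 (adjusted p up to 0.0782). The 4 that rose were Spp1, Mif, Csf1 and Pf4. Spp1, osteopontin, was at 646, 771, 806 and 802 CPM and at 1109, 1408, 1406 and 1375 CPM (log2 fold change 0.81, SE 0.09, adjusted p = 8.5e-06), and Mif, macrophage migration inhibitory factor, rose by a log2 fold change of 0.80 (adjusted p = 0.0001).

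**Figure D4:**
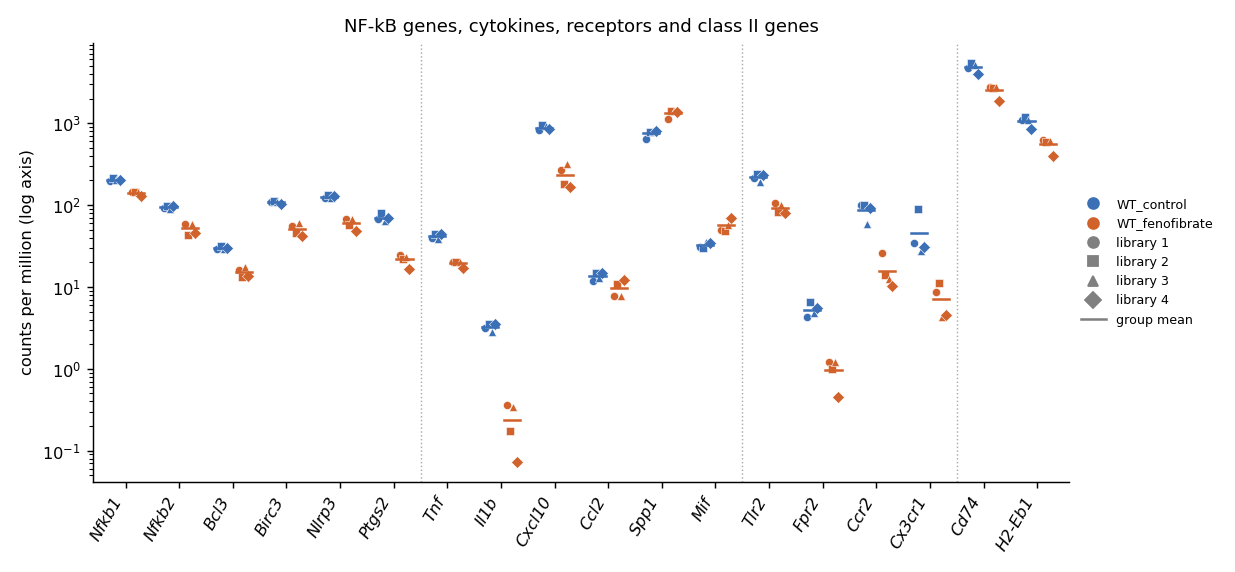
Level of NF-kB genes, cytokines, receptors and class II genes in each of the 8 WT libraries, in counts per M (CPM) on a log axis, with WT_control in blue, WT_fenofibrate in orange, a symbol for each library number and a line at the group mean. Apart from Ccl2, which overlaps, and Spp1 and Mif, which are higher, the 4 treated libraries lie below the 4 control libraries, with Il1b in the fourth treated library at 0.0727 CPM.

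Many interferon-stimulated genes were lower, as were Tlr2 and Tmem173, sensors of microbial products named here for their small p-values. Tlr2, a receptor for bacterial lipoproteins, was at 211, 241, 191 and 235 CPM in WT_control and at 106, 81.7, 101 and 80.9 CPM in WT_fenofibrate (log2 fold change -1.25, SE 0.09, adjusted p = 3.2e-07). Tmem173, which encodes STING, was at 258, 252, 231 and 239 CPM and at 150.4, 129.6, 132 and 135 CPM (log2 fold change -0.84, SE 0.06, adjusted p = 3.2e-07). Of 62 tested type I interferon-stimulated genes, 41 were called lower and 4 higher (Ifi27, Rsad2, Bst2 and Trim25), with a median log2 fold change of -0.38. Without the fourth WT_fenofibrate library 32 were called lower. Parp9, which works with Dtx3l in antiviral defence, fell by 0.41 on the log2 scale and Samd9l, a restriction factor, by 0.72. Gbp2b, a guanylate-binding protein gene with close relatives between which reads could be split, was at 588, 590.3, 602 and 421 CPM and at 137, 92.8, 128 and 38.6 CPM (log2 fold change -2.47, SE 0.35, adjusted p = 9.6e-05). Its lowest values in either group were those of library 4.

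Genes that mark monocytes were lower throughout. All 6 tested monocyte markers, among them Ccr2, F13a1, Plac8, Chil3 and Ly6c2, were called lower, with a median log2 fold change of -1.76, and their sum was 89.8 to 142.5 CPM in WT_control and 20.0 to 41.4 CPM in WT_fenofibrate. Ccr2, the receptor that leads monocytes out of bone marrow, was at 100.4, 101, 57.9 and 92.4 CPM in control and at 25.6, 14, 12.6 and 10.2 CPM in treated libraries (log2 fold change -2.49, SE 0.39, adjusted p = 0.00029). Cx3cr1, the fractalkine receptor, was at 34.6, 90.0, 27.4 and 30.6 CPM and at 8.61, 11.1, 4.35 and 4.52 CPM (log2 fold change -2.67, SE 0.41, adjusted p = 0.0002). Control library 2 was far above the others for Cx3cr1, and the groups did not overlap. In bulk RNA fewer cells of a type and less RNA per cell cannot be told apart, and the part that monocyte-type cells have in the other changes was not tested. Fpr2, a receptor for formyl peptides, fell from 4.27 to 6.49 CPM to 0.453 to 1.22 CPM (log2 fold change -2.47, SE 0.29, adjusted p = 1.9e-05), and Tmem176b, a membrane protein of antigen-presenting cells, from 6.77 to 12.8 CPM to 0.477 to 1.37 CPM (log2 fold change -3.14, SE 0.30, adjusted p = 3.7e-06).

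Genes of antigen presentation on MHC class II fell as well. Of 11 tested, 8 were called lower and 0 higher, with a median log2 fold change of -0.48. Cd74, the invariant chain, was at 4779, 5482, 5127 and 3973 CPM in WT_control and at 2752, 2697, 2762 and 1869.9 CPM in WT_fenofibrate (log2 fold change -0.94, SE 0.12, adjusted p = 2.2e-05). H2-Eb1, a beta chain, was at 1086, 1194, 1092 and 852 CPM and at 623, 586, 602 and 399.7 CPM (log2 fold change -0.93, SE 0.12, adjusted p = 2.5e-05), and H2-Ab1, another, fell by 0.76 on the log2 scale. Library 4 was lowest in either group and no treated library reached a control library. Dendritic cells express these genes strongly. The 8 dendritic cell markers summed to 28.5 to 47.3 CPM in WT_control and 8.93 to 25.4 CPM in WT_fenofibrate, with Xcr1, Batf3 and Clec9a called lower, and their part in the class II result was not tested.

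Of the 12 macrophage markers, 7 were called lower (Cd14, C1qa, Fcgr1, Csf1r, Adgre1, Itgam and Spi1) and 1 higher (Cd68), with a median log2 fold change of -0.54. Their part in the other results was not tested. Markers of other lineages were near the floor or low, apart from endothelial genes. The summed level of NK cell, erythroid and adipocyte markers did not exceed 0.0808 CPM in any WT library and none of them was tested. The sums were at most 0.355 CPM for B and plasma cell, 0.584 CPM for mast cell and basophil and 0.460 CPM for eosinophil markers. T cell markers summed to 1.10 to 1.83 CPM, fibroblast markers to 1.29 to 3.56 CPM and neutrophil markers to 3.22 to 7.93 CPM over the 8 libraries. Megakaryocyte markers lay between 12.8 and 20.2 CPM, most of it Pf4, and osteoclast markers between 10.6 and 18.1 CPM. Endothelial markers summed to 89.9 to 125.9 CPM in WT_control and 164.4 to 292.3 CPM in WT_fenofibrate, where Vwf was called higher, Pecam1 and Cdh5 were called lower and Kdr did not pass the test. Nearly all of that sum came from Vwf and Kdr, and the defining endothelial gene Cdh5 was at 0.178 to 0.397 CPM in control and 0.11 to 0.16 CPM in treated libraries. In the other lists, Lck and Ctsk were called higher and S100a9, Kit and Ccr3 lower.

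Activation and remodelling lists were mixed. Of 18 tested alternative activation markers, 7 were called lower (4 without control library 4) and 2 higher (Klf4 and Tgm2). The count of higher genes was 1 without control library 1, 2 or 3 or fenofibrate library 1 or 4. Of 24 apoptotic-cell and scavenger receptor genes, 8 were called lower and 2 higher, or 14 and 4 in the paired fit. The 2 were Gas6, a bridging ligand, and Itgb3, an integrin chain that pairs with the alpha v chain to bind vitronectin and apoptotic cells. Itgb3 was at 1.39, 1.05, 1.23 and 1.7 CPM in WT_control and at 9.29, 9.26, 8.76 and 18.7 CPM in WT_fenofibrate (log2 fold change 3.09, SE 0.35, adjusted p = 1.4e-05). Of 20 tested remodelling genes, 7 were called higher and 5 lower, the latter led by Mmp13, a collagenase (log2 fold change -1.40, SE 0.18, adjusted p = 3.6e-05). Of 21 tested eicosanoid genes, 11 were called lower and 3 higher (Pla2g12a, Ptger2 and Ptges2), or 12 and 6 in the paired fit. Ptgir, the prostacyclin receptor, stood outside that list and was at 5.2, 5.14, 5.25 and 5.24 CPM in control and at 17.5, 28.8, 20.1 and 51.3 CPM in treated libraries (log2 fold change 2.50, SE 0.28, adjusted p = 1.5e-05). The control libraries lay close together for Ptgir, and treated libraries 2 and 4, those of males, were the highest. Aqp9, a channel for water and glycerol, rose from 0.748 to 1.72 CPM to 7.32 to 19.5 CPM (log2 fold change 3.15, SE 0.33, adjusted p = 7.5e-06). Trib1, a relative of Trib3, went down instead, at 20.3, 24.5, 19.9 and 22.6 CPM in control and 8.22, 8.52, 6.56 and 7.1 CPM in treated libraries (log2 fold change -1.52, SE 0.09, adjusted p = 1.5e-07).

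Metabolic and organelle genes completed the picture. Of 38 tested glycolysis and hypoxia genes, 21 were called higher and 5 lower, with a median log2 fold change of 0.30. These counts were 18 and 4 without the fourth WT_fenofibrate library. Pgam1, a glycolytic mutase, was at 48.5, 48.7, 49.6 and 51.7 CPM in WT_control and at 62, 63.5, 63 and 76.5 CPM in WT_fenofibrate (log2 fold change 0.42, SE 0.06, adjusted p = 5.8e-05), and Slc16a1, the lactate carrier MCT1, rose by a log2 fold change of 0.70 (adjusted p = 0.00046). Of 54 lysosomal genes, 24 were called higher and 10 lower, or 19 and 8 without the fourth WT_fenofibrate library. Gaa, which breaks down glycogen in lysosomes, was at 136, 122, 141 and 145 CPM and at 204, 195, 203 and 243 CPM (log2 fold change 0.64, SE 0.08, adjusted p = 3.3e-05). Mcoln1, a calcium channel of the lysosome, rose by a log2 fold change of 0.58 (adjusted p = 7.6e-05), while Ctsc, a protease that activates granule enzymes, fell (log2 fold change -0.90, SE 0.12, adjusted p = 2.6e-05). Tfeb, the main transcription factor for lysosomal genes, was at 36.2, 32.6, 36.1 and 33.1 CPM in control and at 34.5, 29.1, 30.9 and 28.2 CPM in treated libraries (log2 fold change -0.17, SE 0.10, adjusted p = 0.21), overlapped, and was called lower in the paired fit (adjusted p = 0.031). Of 39 autophagy genes, 11 were called higher and 7 lower. Genes such as Pgam1, Ftl1, Fabp5, Hspd1, Hspe1, Hspa8 and Mif have near-identical pseudogene copies, and reads could be split between them.

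Some cell cycle genes changed. Of 44 tested replication and G1/S genes, 15 were called higher and 4 lower, or 24 and 5 in the paired fit. Cdt1, which licenses replication origins, was at 27.9, 27.1, 27.5 and 30.6 CPM in WT_control and at 43.2, 43.9, 35.6 and 39.3 CPM in WT_fenofibrate (log2 fold change 0.52, SE 0.07, adjusted p = 5.9e-05). Ccnd1, cyclin D1, was at 133, 118, 122 and 124 CPM and at 78.9, 70.3, 66.7 and 75.2 CPM (log2 fold change -0.77, SE 0.06, adjusted p = 3.2e-07), and Ccnd2 and Ccnd3 were also called lower. The 2 genes did not overlap between groups and moved in opposite directions. Of 38 mitosis genes, 0 were called higher and 2 lower, Kif20a (log2 fold change -0.56, SE 0.16, adjusted p = 0.013) and Cdc20 (log2 fold change -0.55, SE 0.13, adjusted p = 0.0031). The count of 2 rose to 11 in the paired fit and to 5 or 6 without control library 3, fenofibrate library 1 or fenofibrate library 2. Of 11 aryl hydrocarbon receptor targets, 2 were called higher (Slc7a5 and Nqo1) and 4 lower (Scin, Ahrr, Ahr and Nfe2l2). In the paired fit 3 were called lower, and Scin was not among them. The classic targets of the receptor, Cyp1a1 and Cyp1b1, had at most 1 and 5 counts in a WT library. Of 22 xenobiotic metabolism genes, 2 were called higher (Por and Abcc5) and 7 lower.

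The response of WT cells was then set against that of Irgm1KO cells in the same experiment, as the difference of the log2 fold changes, Irgm1KO minus WT. This difference was called for 4565 of the 15429 tested genes (29.6%), and for 2316 of the 5407 genes called in WT. Of the 41 tested ATF4 list genes, 33 differed, and the median log2 fold change was 0.90 in WT and 0.08 in Irgm1KO. Asns was at 87.3 to 101 CPM in Irgm1KO_control and 78.9 to 102 CPM in Irgm1KO_fenofibrate, beside 12.1 to 22.4 and 63.2 to 107 CPM in the WT groups (difference -2.17, SE 0.26, adjusted p = 3.5e-05). Trib3 was at 31.2 to 35.6 CPM and 23.5 to 35.6 CPM in the mutant, beside 2.66 to 5.07 and 34.9 to 84.3 CPM in WT (difference -3.72, SE 0.39, adjusted p = 1.4e-05). In untreated Irgm1KO cells both genes were thus already near the level that WT cells reached with fenofibrate. Slc7a5, which rose in WT, fell in the mutant, with 21.3 to 29.4 CPM in Irgm1KO_control and 14.6 to 15.5 CPM in Irgm1KO_fenofibrate (difference -3.23, SE 0.22, adjusted p = 1.9e-07). Pck2 gave log2 fold changes of 0.90 in WT and 0.75 in Irgm1KO, and the difference was not called (-0.15, SE 0.09, adjusted p = 0.25).

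The opposite sign appeared for chaperones and mitochondrial mRNAs. Of 32 endoplasmic reticulum genes, 24 differed, with medians of -0.35 in WT and 0.17 in Irgm1KO. Herpud1 was at 33.3 to 34.3 CPM in Irgm1KO_control and 51.3 to 52.8 CPM in Irgm1KO_fenofibrate, beside 68.7 to 78.2 and 49.6 to 56.2 CPM in WT (difference 1.04, SE 0.07, adjusted p = 7.4e-08). All 7 tested mitochondrially encoded mRNAs differed, with medians of -0.52 and 1.05. The mitochondrial share of counts was 0.665% to 0.86% in Irgm1KO_control and 1.4% to 1.525% in Irgm1KO_fenofibrate, so the treated groups of the genotypes lay closer together than the control groups. mt-Nd5 was at 686 to 880.4 CPM and 1298 to 1414 CPM in the mutant, beside 1983 to 2329 and 856 to 1267 CPM in WT (difference 1.73, SE 0.16, adjusted p = 1.4e-06). Of 62 interferon-stimulated genes 56 differed, with medians of -0.38 in WT and -1.27 in Irgm1KO, and of 26 cholesterol genes 21 differed, with medians of -0.04 and 0.61.

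NF-kB genes differed in 14 of 30, with medians of -0.71 in WT and -0.98 in Irgm1KO. Tnf fell in either genotype, with log2 fold changes of -1.10 and -1.26 (difference -0.16, SE 0.12, adjusted p = 0.34), and so did Tlr2, with -1.25 and -1.07 (difference 0.18, SE 0.13, adjusted p = 0.32). A difference that is not called does not show that the genotypes respond alike. Cx3cr1 was low in the mutant from the start, at 4.54 to 7.35 CPM in Irgm1KO_control and 3.91 to 7.24 CPM in Irgm1KO_fenofibrate (difference 2.62, SE 0.56, adjusted p = 0.0032). Fabp4 and Pex11a, PPAR targets that rose in WT, gave differences of -0.08, SE 0.26, adjusted p = 0.85 and -0.32, SE 0.13, adjusted p = 0.087.

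**Figure D5:**
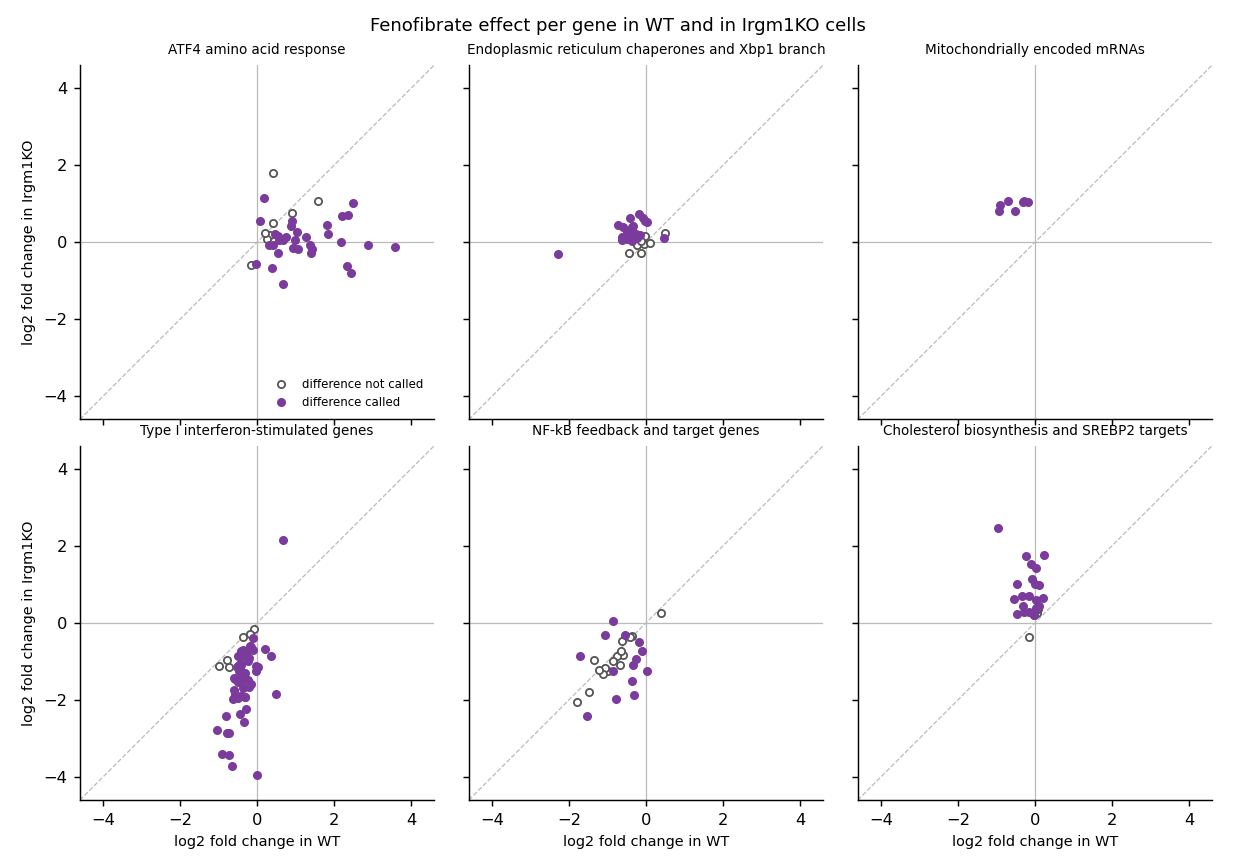
Log2 fold change with fenofibrate of each tested gene of 6 lists in WT (horizontal axis) and in Irgm1KO cells (vertical axis), filled where the difference of the fold changes was called and open where it was not; the dashed line marks equal change. ATF4 genes spread to the right along the zero line of Irgm1KO (33 of 41 filled), mitochondrially encoded mRNAs lie in the upper left (7 of 7 filled), and NF-kB genes scatter around the dashed line in the lower left (14 of 30 filled).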

How the data were processed

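Messenger RNA libraries (Kapa mRNA HyperPrep kit, 50 sequencing cycles) were made from cultured macrophages. Read counts per gene were deposited by the authors as a table of 16 libraries of 4 groups. Per the submitters' processing notes, fastp, STAR, DESeq2 and build GRCm39 were used. Which versions, counting tool, annotation and strand setting were used is not given in the sources used here. Near-identical copies, overlapping and antisense genes cannot be told apart with certainty.

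Groups were taken from the sample labels. Raw counts were filtered (filterByExpr, minimum count 10, minimum total 15), scaled by TMM and fitted for all 16 libraries in 1 model of group means, without a block, with edgeR 4.0.16 (quasi-likelihood, robust; R 4.3.3, limma 3.58.1), and p-values were adjusted by Benjamini-Hochberg over 15429 genes at a threshold of 0.05. The fit was tested on simulated data. A standard error is the log2 fold change divided by the square root of its F value. The common biological coefficient of variation between libraries was 0.12. Counting error is larger than that for genes with few counts, such as Gsta3 and Cox6a2 in WT_control and Il1b in WT_fenofibrate. Symbols came from a GENCODE table (91.2% of IDs) and promoter windows from RefSeq (66.4% of tested genes).

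Same-numbered libraries pair: deviations from group means correlated at 0.76 to 0.84 between same-numbered WT libraries and at -0.67 to 0.61 between others, and at 0.29 to 0.86 and -0.68 to 0.12 in Irgm1KO. The labels give the numbers but do not say what they share. Same-numbered libraries of a genotype were of the same sex by Xist and Y-linked counts. A fit with the number as a block is given where it changed a call among 120 genes checked, and for some lists.

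The comparison, the 31 gene lists and the 15 marker lists were chosen with earlier results of these data known. The rule for named genes took the 12 largest rises and falls at 5 CPM or more without overlap, the 10 smallest p-values, up to 5 members of each list, 36 genes fixed by name and the 5 strongest differences from Irgm1KO. Not every gene it picks is described, and some genes are not reported here. Atf4, Chac1, Slc7a11, Aars, Nupr1, Jdp2, Nfkb2, Bcl3, Mgll and the members spelled out for a count were added after their values were seen, as were the motif form TGATGNAA and the NF-kB form. The final search held 9 motifs, not counting the longer NF-kB form tried first. Alternatives tried were RLE scaling, no filter on low counts, DESeq2 1.42.0, the 8 WT libraries alone, the block, and each WT library left out in turn.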

Additional observations from a re-analysis of the deposited data

Results flagged for a closer look

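The gap between the highest or lowest library and the next was compared with the range of its group for 120 genes in the 2 WT groups. It was larger than Dixon's 95% limit for groups of 4 for 27 of 240 gene and group pairs. Chance alone flags about 1 in 20 groups of independent values, and levels of genes within a library are not independent. In the fourth WT_fenofibrate library 20 levels stood apart. Those above the others of the group were Trib3 at 84.3 CPM, Chac1 at 3.57 CPM, Sars at 281 CPM, Slc6a9 at 7.36 CPM, Smpdl3a at 1350 CPM, Aars at 421 CPM and Mt2 at 38.8 CPM. Also above were Aqp9 at 19.5 CPM, Itgb3 at 18.7 CPM, Slc1a4 at 8.44 CPM, Jdp2 at 38.7 CPM, Acot2 at 12.4 CPM, Atf4 at 297 CPM, Hspa9 at 587 CPM and Pgam1 at 76.5 CPM. Those below were Nfe2l2 at 271 CPM, Nfkb1 at 129 CPM, H2-Eb1 at 400.0 CPM, Tnf at 17.1 CPM and Cd74 at 1870 CPM. In WT_control library 2 the level set apart was Ctsc at 4270 CPM, Mcoln1 at 31.8 CPM and Cx3cr1 at 90 CPM. In WT_control library 4 the level set apart was Gbp2b at 421 CPM, Samd9l at 246 CPM and Herpud1 at 78.2 CPM. In WT_fenofibrate library 1 the level set apart was Spp1 at 1110 CPM. The gene taking the largest share of counts, which has no symbol in the tables used, took 6.24% in WT_fenofibrate library 2, far from the others of its group.

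Of the 120 genes checked above, 66 were called in WT and also differed between genotypes in edgeR's quasi-likelihood test of the difference itself. Over all tested genes 29.6% differed, and 2316 of the 5407 genes called in WT did. The 120 genes were chosen in part by that test. Genes named only as members of a count were not part of this check. The value in brackets is the difference of log2 fold changes, Irgm1KO minus WT. Of the 66 differences, 34 were negative. These were Cox6a2 (-4.46), Trib3 (-3.72), Slc7a5 (-3.23), Chac1 (-2.96), Slc1a4 (-2.67), Slc6a9 (-2.60), Slc6a19 (-2.45), Ptgir (-2.34) and Aqp9 (-2.31). Next came Asns (-2.17), Nupr1 (-1.75), Ddit3 (-1.66), Phgdh (-1.65), Slc7a11 (-1.61), Atf5 (-1.51), Atf4 (-1.44), Aars (-1.23) and Fpr2 (-1.21). Smaller were Nqo1 (-1.15), Hspa4l (-1.14), Mthfd2 (-1.13), Hspa9 (-1.10), Ccl2 (-1.01), Hspa8 (-0.89), Cxcl10 (-0.88), Mylip (-0.82) and Sars (-0.76). Smaller were Hspd1 (-0.61), Hspe1 (-0.58), Plin2 (-0.52), Cdt1 (-0.42), Jdp2 (-0.38), Parp9 (-0.31) and Acadl (-0.24). The other 32 were positive. These were Cx3cr1 (2.62), Kbtbd11 (2.46), Itga8 (2.36), Derl3 (1.98), Ccr2 (1.90), Kif20a (1.88), mt-Cytb (1.87), Tmem176b (1.77) and mt-Nd4 (1.77). Next came Cdc20 (1.76), Pxmp2 (1.75), mt-Nd5 (1.73), Fasn (1.38), mt-Nd2 (1.36), mt-Co1 (1.34), Sdf2l1 (1.18), Herpud1 (1.04) and Rnf145 (1.02). Smaller were Ptgs2 (0.85), Trib1 (0.85), Ucp2 (0.84), Pdia4 (0.78), Nlrp3 (0.77), Lpl (0.77), Insig1 (0.69), Hspa5 (0.69) and H2-Eb1 (0.57). Smaller were Ctsc (0.50), Cd74 (0.50), Txnip (0.42), Nfkb1 (0.25) and Srebf1 (0.22).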

How the results depend on the processing

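Genes called higher and lower numbered 2676 and 2721 with RLE scaling, 2180 and 2292 without a filter on low counts, 2829 and 2877 with DESeq2, and 2734 and 2883 from the 8 WT libraries alone. Leaving out each WT library in turn gave 2222 to 2611 genes higher and 2209 to 2496 lower. The difference between genotypes was called for 4565 genes with RLE scaling, 3632 without the filter and 4969 with DESeq2. In the paired analysis, with the replicate number as a block, 3505 genes were called higher and 3241 lower, 2781 of the 2794 and 2594 of the 2613 among them, and 5915 differed between genotypes. The block added calls for Ppard, Rxra, Cd36 and Tfeb and changed no other call among the 120 genes checked above. Outside these 120 genes, it removed the call of Scin. Ppard was also called lower with RLE scaling, DESeq2, the WT libraries alone and without control library 3 (adjusted p = 0.0412 to 0.05). Lpl and Ccl2 were not called without the filter (adjusted p = 0.0582 and 0.0928). Among the 120 genes, fold changes that changed sign belonged to genes that were not called. Irgm1 was at 0.00 without control library 1 and at 0.02 without fenofibrate library 2. Cd36 was at -0.02 and Pparg at -0.01 without control library 2, and Pparg was at -0.03 without fenofibrate library 1. Over the libraries left out, the ranges were -0.05 to 0.02 for Irgm1, -0.02 to 0.38 for Cd36 and -0.03 to 0.16 for Pparg. List counts that moved by more than 1.5 times under other settings were, without the filter, mitochondrial fatty acid oxidation (4 higher), peroxins (2 higher), NRF2 (2 lower), citric acid cycle (1 higher), oxidative phosphorylation (3 higher) and alternative activation (1 higher). With DESeq2 they were NRF2 (7 lower), citric acid cycle (4 lower) and mitosis (4 lower), and with RLE scaling the citric acid cycle (1 higher). From WT libraries alone they were PPAR receptors and cofactors (1 higher, 8 lower), oxidative phosphorylation (9 higher) and alternative activation (1 higher). The causes were not tested. Ppara, Pdk4, Cyp1a1 and Cyp1b1 had too few counts to test. Summed over the 8 WT libraries, each of 84.6 to 118.1 M counts, they had 4, 4, 5 and 18 counts.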

Other observations

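Several genes with large or precisely measured falls belonged to none of the gene lists. Marcksl1, a protein that binds actin and membranes, was at 82.9, 111, 82.9 and 93.1 CPM in WT_control and at 22.4, 14.4, 23.5 and 11 CPM in WT_fenofibrate (log2 fold change -2.38, SE 0.21, adjusted p = 1.8e-06). Rnf145, a ubiquitin ligase of sterol metabolism that LXR is known to induce, was at 93.9, 105, 98.9 and 91 CPM and at 41.3, 45.2, 44.2 and 31.9 CPM (log2 fold change -1.26, SE 0.09, adjusted p = 3.2e-07), and its log2 fold change was -0.23 in Irgm1KO (difference 1.02, SE 0.12, adjusted p = 2e-05). Madd, a regulator of Rab GTPases, fell with little spread, from 126 to 130.1 CPM to 80.8 to 91.3 CPM (log2 fold change -0.59, SE 0.04, adjusted p = 3.2e-07). Among the lower-level genes, Adam19, a membrane-bound metalloproteinase, was at 2.65, 12.6, 7.54 and 5.29 CPM in control and at 0.747, 1.93, 1.72 and 0.776 CPM in treated libraries (log2 fold change -2.44, SE 0.44, adjusted p = 0.0006). Plxdc2, a membrane receptor, was at 101, 54.9, 62.2 and 36 CPM and at 24.4, 8.78, 14.1 and 3.79 CPM (log2 fold change -2.32, SE 0.49, adjusted p = 0.0025). Same-numbered libraries kept their rank in both groups for Plxdc2, from library 1 down to library 4, with libraries 2 and 3 in between in the same order. Kbtbd11 (log2 fold change -2.43, SE 0.33, adjusted p = 5.7e-05), Itga8, an integrin chain (log2 fold change -2.24, SE 0.28, adjusted p = 2.5e-05), and Ipcef1 (log2 fold change -2.24, SE 0.29, adjusted p = 3.3e-05) also fell by more than 2-fold. In these 8 genes no treated library reached the lowest control library, which the rule that picked them required.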
